A study of Caenorhabditis elegans with 6 samples.

Results

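The bus and bah genes of the nematode Caenorhabditis elegans act on the outer face of the cuticle. Their names come from mutant phenotypes: bus mutants resist the tail swelling caused by the bacterium Microbacterium nematophilum, and bah mutants escape the biofilm that Yersinia lays on the head. As background, the surface coat over the cuticle is rich in glycans and glycoproteins, and many of these genes encode predicted enzymes or transporters of sugar attachment. Several of them have been reported in the seam, a row of epidermal cells along each flank that helps to build the cuticle. The set was given as 10 gene symbols, of which 10 were on the array among 17118 genes measured by a probe set with a single gene name. The platform annotation lists bus-8 under its present symbol, bus-8B (T23F2.1), and its 2 probe sets were taken as those of bus-8. Each other member had 1 such probe set, which gave 11 of 20766 in all. Where a gene had several, the main probe set was chosen by its brightness over the 6 arrays, and that mean was the only measured value used by the rule. The 10 names were proposed with results of these arrays already known, so the differences below are not independent evidence about the set.

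Whole L1 larvae, the first larval stage, were assayed unfed on 6 Affymetrix arrays, 2 in each of 3 groups. The first group was the mutant elo-5(gk208) on C13ISO, which the labels call C17ISO deficient, the next was elo-5(gk208) on C17ISO, and the last was wild-type N2 on C13ISO. The product of elo-5 is an elongase in the synthesis of C17ISO, and C13ISO and C17ISO are branched saturated fatty acids of shorter and longer chain. All lines had first spent 1 generation on bacteria with 1 mM C17ISO, the next generation received the named supplement at 1 mM and 20 °C, and their bleached eggs hatched on plates without food for 24 h. No N2 larvae given C17ISO were analysed here, so elo-5 C17ISO and N2 C13ISO differ in genotype and supplement together. The series design calls the 2 arrays of a group biological replicates. Age was fixed by time after plating of the eggs, and the stage reached by the larvae of each group was not measured here.

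Values are the authors' model-based intensities on a linear scale, given below for replicate 1 and then replicate 2. Differences are in log2(intensity + 16) from a single limma fit of all 6 arrays over 15783 probe sets whose mean exceeded 31.2, the 30th percentile. P-values are two-sided and adjusted by Benjamini-Hochberg over all of them, and a gene was called at an adjusted p under 0.05. All 11 probe sets of the set passed the filter, and no group mean of theirs lay below that filter value. The elo-5 probe set itself read 181 ± 51.7 (SD, n = 2) with C13ISO and 162 ± 22.7 with C17ISO in the mutant, and 1389 ± 310 in the wild type. Arrays of a group had Spearman correlations of 0.984 to 0.989, elo-5 C13ISO arrays correlated with the others at 0.926 to 0.943, and elo-5 C17ISO and N2 C13ISO arrays at 0.981 to 0.982.

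All 10 genes were lower in elo-5 C13ISO larvae than in elo-5 C17ISO larvae and lower than in N2 C13ISO larvae. The falls ran from 1.95-fold for bus-2 to 17.7-fold for bah-1 against elo-5 C17ISO, and from 1.98-fold to 22.6-fold, for the same genes, against N2. Of all tested probe sets, 44.8% were called in the first comparison, with 18.8% of the tested called lower, and 43.9% in the second, with 20.5% called lower. The arrays of elo-5 C13ISO lay below those of the other group, with no overlap, for 10 of 10 genes in each comparison, beside 31.3% and 34.8% of all tested probe sets. A fall of at least 4-fold was called for 9 of the 10 genes against elo-5 C17ISO and 8 of 10 against N2, against 2.69% and 2.78% of all tested probe sets. These 4-fold counts of the set depend on the offset. With an offset of 64, bus-17 against elo-5 C17ISO (log2 -1.66) and bus-1 against N2 (log2 -1.80) fell by less than 4-fold. With an offset of 1, bus-17 against N2 fell by more than 4-fold (log2 -2.16). The median log2 difference of the 10 genes was -2.85 and -2.88, beside medians of 0.07 and 0.02 over all tested probe sets. The 2 comparisons share the elo-5 C13ISO arrays, and the names were chosen with these results known, so the counts describe the set and give no test of it. Since whole larvae were measured, fewer cells of a type and less RNA per cell cannot be told apart.

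**Figure D1:**
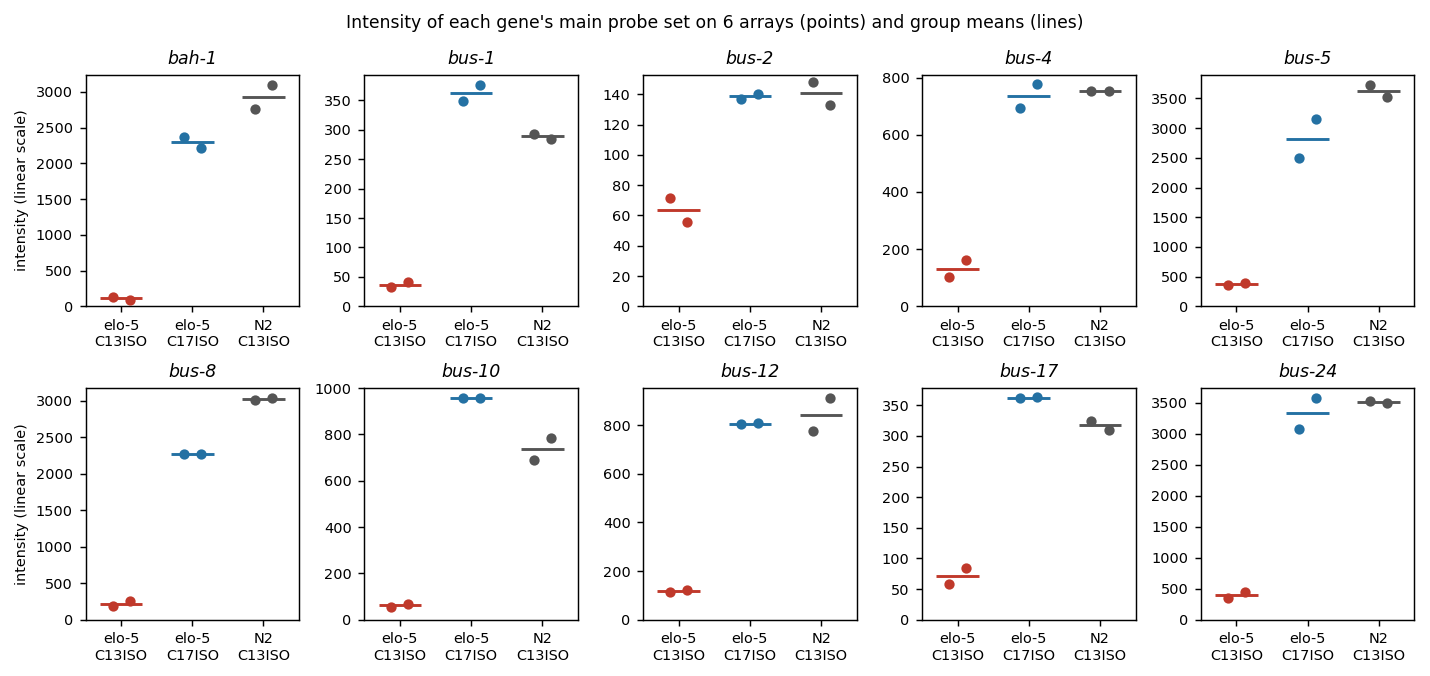
Intensity (linear scale, axis from 0) of the main probe set of each of the 10 genes on each of the 6 arrays (points) with group means (lines). In every panel the 2 elo-5 C13ISO arrays lie below all 4 others, from 33 and 40.9 for bus-1 to 354 and 449 for bus-24.

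The gene bah-1 (ZK1025.7), whose product is needed for biofilm to stick to the head and has been reported in seam cells, had the widest range over the 6 arrays. Its probe set read 137 and 94.9 in elo-5 C13ISO, 2369 and 2218 in elo-5 C17ISO, and 2759 and 3091 in N2 C13ISO. The elo-5 C13ISO arrays were far below the rest, and the N2 arrays lay above those of elo-5 C17ISO. It fell 17.7-fold against elo-5 C17ISO (log2 -4.15, SE 0.17, adjusted p = 1.01e-07) and 22.6-fold against N2 (log2 -4.50, adjusted p = 5.43e-08). Only 4 of the 15783 tested probe sets had a lower difference in the first comparison and 5 in the second. A further probe set, annotated to bah-1 together with the pseudogene ZK1025.5, read 140 and 145, then 1912 and 2060, then 2422 and 2404. Its groups were in the same order, with log2 differences of -3.66 and -3.94, and it was kept out of the counts because its signal may come from either gene.

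Predicted glycosyltransferases, enzymes that add sugars to proteins and lipids, are encoded by bus-2, bus-4, bus-8 and bus-17. For bus-8, which also acts in epidermal morphogenesis of the embryo, the main probe set read 190 and 249 in elo-5 C13ISO, 2264 and 2269 in elo-5 C17ISO, and 3010 and 3032 in N2 C13ISO. The 3 groups did not overlap, and elo-5 C13ISO held 7.28% of the mean N2 intensity. The fall was 9.75-fold against elo-5 C17ISO (log2 -3.29, 95% interval -3.60 to -2.97, adjusted p = 1.36e-07) and 13-fold against N2 (log2 -3.70). The second bus-8 probe set read 347 and 350, then 1961 and 1705, then 2612 and 2236, again with groups apart and in the same order. Its fall against elo-5 C17ISO was smaller, 5.06-fold (log2 -2.34, interval -2.64 to -2.04), so the probe sets of this gene share a direction and have intervals that do not overlap. In the gene table the bus-8 locus overlaps bus-8A, T23F2.2 and a noncoding RNA, and which transcripts each probe set reads was not tested.

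The gene bus-4 (T22B11.2) read 102 and 161 in elo-5 C13ISO, 694 and 777 in elo-5 C17ISO, and 751 and 755 in N2 C13ISO. Its elo-5 C13ISO arrays were the lowest and also the most spread in proportion, and the arrays of the other groups overlapped. It fell 5.19-fold against elo-5 C17ISO (log2 -2.38, SE 0.20, adjusted p = 8.12e-06) and 5.32-fold against N2. The probe set of bus-17 (ZK678.8) read 58.8 and 83.7, then 361 and 363, then 325 and 310. Here elo-5 C17ISO lay slightly above N2, and elo-5 C13ISO was 4.38-fold lower than the former (log2 -2.13, SE 0.18, adjusted p = 9.24e-06) and 3.86-fold lower than the latter.

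The smallest change was that of bus-2 (K08D12.5), which read 71.7 and 55.4 in elo-5 C13ISO, 137 and 140 in elo-5 C17ISO, and 148 and 133 in N2 C13ISO. Its arrays of elo-5 C13ISO were still the lowest, at 45.9% of the mean intensity in elo-5 C17ISO and 45.2% of that in N2. The log2 difference was -0.97 (interval -1.37 to -0.56, adjusted p = 0.00166) against elo-5 C17ISO and -0.98 (adjusted p = 0.00147) against N2. Those intervals lay above the intervals of all 9 other main probe sets in either comparison. A difference lower than that of bus-2 was found at 7.85% of tested probe sets in the first comparison, whereas for the other 9 genes that share was at most 2.39%.

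Sugar donors reach the glycosyltransferases as nucleotide sugars, made in the cytosol and carried into the Golgi. The gene bus-5 (F53B1.4), a predicted nucleotide sugar dehydratase, read 354 and 396 in elo-5 C13ISO, 2494 and 3148 in elo-5 C17ISO, and 3732 and 3527 in N2 C13ISO. The 3 groups did not overlap, and the fall was 7.22-fold against elo-5 C17ISO (log2 -2.85, SE 0.14, adjusted p = 2.26e-07) and 9.33-fold against N2. The predicted nucleotide sugar transporter gene bus-12 (JC8.12) read 113 and 123, then 806 and 808, then 774 and 914. Its elo-5 C13ISO arrays were again apart while the others overlapped, and it fell 6.15-fold (log2 -2.62, SE 0.15, adjusted p = 7.21e-07) and 6.40-fold.

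The gene bus-1 (R03H4.6) encodes a predicted acyltransferase known from rectal cells, where M. nematophilum attaches. It read 33 and 40.9 in elo-5 C13ISO, 349 and 377 in elo-5 C17ISO, and 292 and 285 in N2 C13ISO. The highest arrays were those of elo-5 C17ISO, and elo-5 C13ISO was lower than these by 7.17-fold (log2 -2.84, SE 0.17, adjusted p = 7.48e-07) and 5.77-fold against N2. Its elo-5 C13ISO values were near the offset, so the size of this fall depends on it. With an offset of 1 the log2 difference was -3.27 against elo-5 C17ISO and -2.94 against N2, and with 64 it was -2.08 and -1.80. Of 9 tested genes of the rectal cell list, 4 fell and 2 rose in each of the comparisons with elo-5 C13ISO, with median log2 differences of -0.24 and -0.27. All called genes are named here: egl-5, hlh-3, lin-48 and mab-9 fell, and pax-3 and vab-3 rose. The list was written from general knowledge, its genes need not be particular to rectal cells, and whether these values come from such cells was not tested. Of all tested probe sets 18.8% and 20.5% were called lower, and 44.8% and 43.9% in either direction. The count that rose fell to 1 against elo-5 C17ISO without elo-5 C17ISO replicate 2, and against N2 to 1 without elo-5 C13ISO replicate 1 or N2 C13ISO replicate 1 and to 0 without N2 C13ISO replicate 2. The hindgut transcription factor gene lin-48 had the largest difference of that list, with a fall of 2.72-fold against elo-5 C17ISO and 2.94-fold against N2.

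For bus-10 (ZK596.3) the arrays read 54.5 and 68.4 in elo-5 C13ISO, 955 and 956 in elo-5 C17ISO, and 691 and 786 in N2 C13ISO. The groups did not overlap and elo-5 C17ISO was the highest. The fall was 12.6-fold against elo-5 C17ISO (log2 -3.65, SE 0.16, adjusted p = 1.42e-07) and 9.77-fold against N2. With an offset of 64 its log2 differences were -3.03 and -2.68. The gene bus-24 (Y11D7A.9) read 354 and 449, then 3078 and 3580, then 3527 and 3490. Its elo-5 C17ISO and N2 arrays overlapped, and elo-5 C13ISO was 8.04-fold lower than the former (log2 -3.01, SE 0.14, adjusted p = 1.79e-07) and 8.50-fold lower than the latter.

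In the gene table, bus-5, bus-8 and bus-24 each overlap another protein-coding gene with a probe set of its own, and the strand of the overlap is not given there. Y11D7A.8, which overlaps bus-24, read 60.47 and 52.74 in elo-5 C13ISO, 27.32 and 25.28 in elo-5 C17ISO, and 22.55 and 23.35 in N2 C13ISO. Its log2 differences were 0.78 and 0.90, but both other groups lay below the filter value. It passed only through elo-5 C13ISO and had to be higher there, so its rise supports nothing. F53B1.2, which overlaps bus-5, and T23F2.2, which overlaps bus-8, were not called, with log2 differences of 0.22 and 0.07 against elo-5 C17ISO. F53B1.2 and T23F2.2 had no fall like that of the member each overlaps. For Y11D7A.8 a fall could hardly have been seen, since its values in the other groups were below the filter value.

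**Figure D2:**
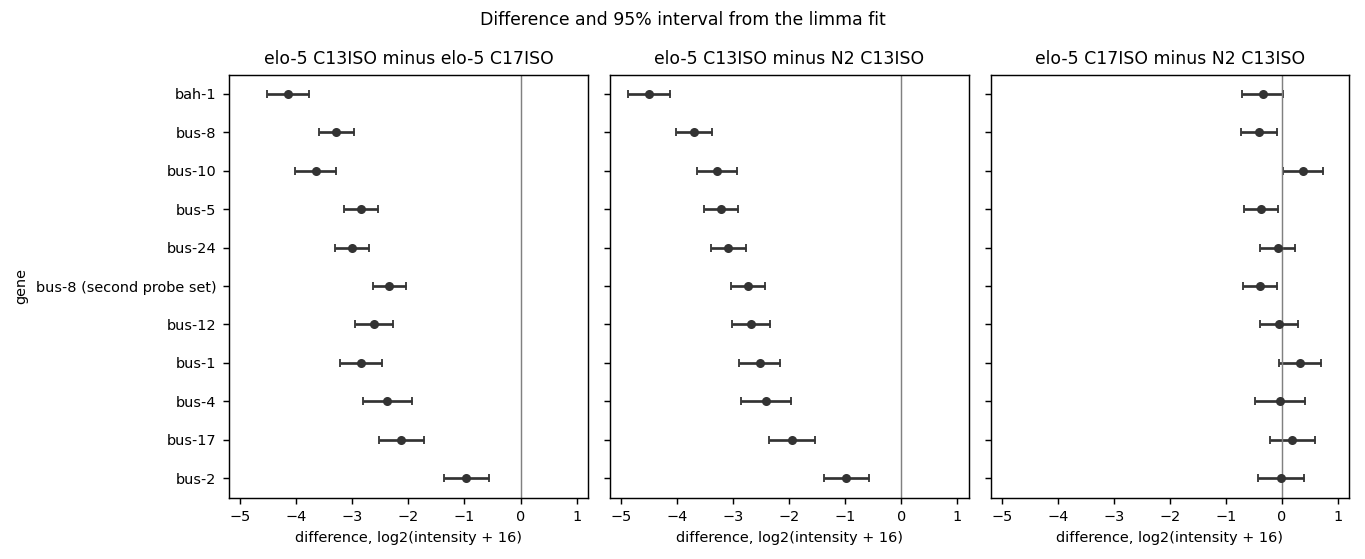
Difference in log2(intensity + 16) with its 95% interval from the limma fit, for the 10 main probe sets and the second bus-8 probe set, in 3 comparisons. In the first 2 panels every interval lies below 0, from bus-2 at -0.97 and -0.98 to bah-1 at -4.15 and -4.50, whereas in the third all estimates lie between -0.41 and 0.37.

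Between elo-5 C17ISO and N2 C13ISO none of the 10 genes was called by limma. In that comparison 1.41% of all tested probe sets were called. At an unadjusted p under 0.05 the count was 3 of 10, beside 15.7% of all tested probe sets. These were bus-8 (log2 -0.41, interval -0.73 to -0.09, adjusted p = 0.194), bus-5 (-0.37, -0.68 to -0.07, adjusted p = 0.219) and bus-10 (0.37, 0.01 to 0.73, adjusted p = 0.307). The second bus-8 probe set gave -0.40 (adjusted p = 0.186), close to the first. Over the 10 genes the mean intensity in elo-5 C17ISO ran from 75.0% of the N2 mean for bus-8 to 129% for bus-10. At 6 of the 10 the arrays lay apart, with elo-5 C17ISO lower for bah-1, bus-5 and bus-8 and higher for bus-1, bus-10 and bus-17. Of all tested probe sets 30.5% were apart in the lower and 20.4% in the higher direction. The interval ends farthest from 0 were -0.73 for bus-8 and 0.73 for bus-10, so differences of up to 1.66-fold lower and 1.65-fold higher lay within the intervals. With only the arrays of these groups in the fit, bus-8 was called lower (adjusted p = 0.0384).

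**Figure D3:**
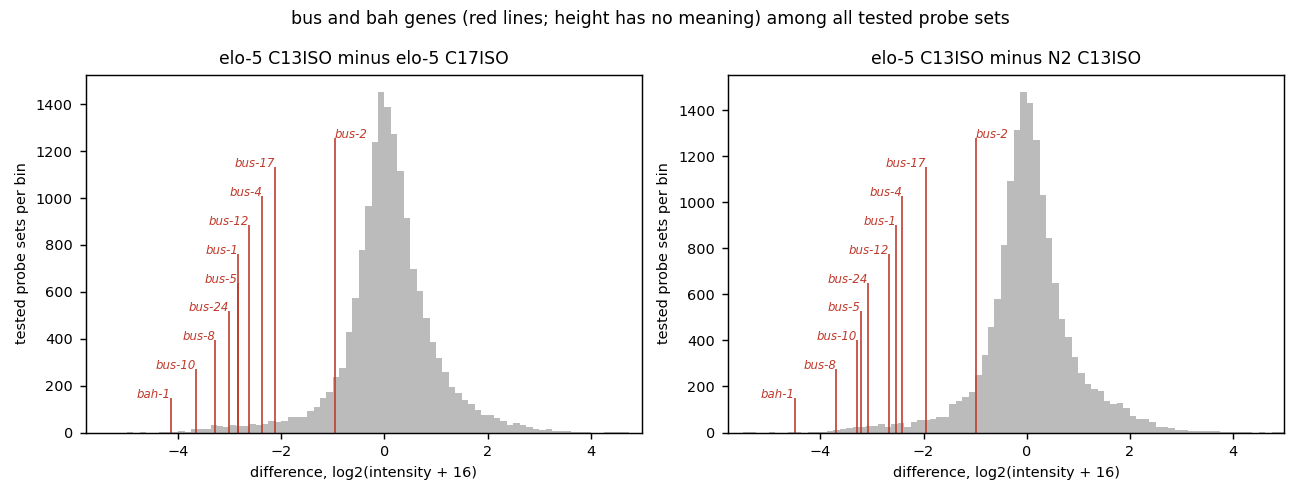
Histogram of the difference in log2(intensity + 16) over 15783 tested probe sets (grey bars, number per bin) with the 10 main probe sets as red lines, whose height carries no value. The lines of 9 genes lie in the lower tail, where at most 2.39% (left) or 2.91% (right) of probe sets had a lower difference, and bus-2 lies nearer the bulk at 7.85% and 8.31%.

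Other genes of the surface and of glycan supply were taken as lists, which were written with earlier results of these data known. Of 34 listed further surface genes 14 were on the array and tested. Of these, 10 fell and 1 rose against elo-5 C17ISO, with a median log2 difference of -1.41, and 11 fell and 0 rose against N2, with a median of -1.50. Of all tested probe sets 18.8% and 20.5% were called lower, and 44.8% and 43.9% were called in either direction. For bah-2, bus-18, bus-22 and srf-2, which are 4 of the genes that fell in each comparison, the elo-5 C13ISO mean lay below the filter value. They passed only through the other groups and had to differ, so the counts and medians describe this list and support nothing. With no filter 10 and 11 genes again fell. The single rise was lost with array medians aligned, against a 1.2-fold change and in some fits with an array left out. The gene bah-2, another gene needed for biofilm on the head, read 20 ± 2.04 in elo-5 C13ISO and 307 ± 20.1 in elo-5 C17ISO (SD, n = 2). The ratio of these means was 15.3, whereas on the scale with the offset of 16 the fall was 8.96-fold, with log2 differences of -3.88 at an offset of 1 and -2.14 at 64. The surface antigen gene srf-5 fell 7.55-fold against elo-5 C17ISO and 5.85-fold against N2. For srf-2, another surface antigen gene, the elo-5 C13ISO mean of 11 lay below the offset itself, and the log2 difference against elo-5 C17ISO ran from -3.67 at an offset of 1 to -1.50 at 64. Against N2 the genes not called were bre-2, bre-3 and bre-4, glycolipid synthesis genes that are singled out here after their values were seen, with log2 differences of 0.14, 0.33 and -0.01. Against elo-5 C17ISO bre-3 was the 1 gene that rose (log2 0.46, adjusted p = 0.0253), and bre-2 and bre-4 were not called.

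Of 26 tested genes of nucleotide sugar synthesis and transport, 16 fell and 4 rose against elo-5 C17ISO and 17 fell and 3 rose against N2, with medians of -0.65 and -0.70. Among those that fell, nstp-8 and nstp-9 had elo-5 C13ISO means below the filter value. They passed only through the other groups and had to differ, so the counts and medians describe this list and support nothing. Of all tested probe sets 18.8% and 20.5% were called lower, and 44.8% and 43.9% were called in either direction. The count that rose was 2 against elo-5 C17ISO without elo-5 C17ISO replicate 2, and 1 against N2 without N2 C13ISO replicate 2. The rhamnose synthesis gene rml-3 read 310 ± 34.9 in elo-5 C13ISO against 3150 ± 141 in elo-5 C17ISO (SD, n = 2) and fell 9.74-fold. Against N2 it fell 9.15-fold, the nucleotide sugar transporter family gene nstp-3 fell 7.58-fold and rml-5 fell 4.67-fold. The opposite direction was that of gna-2, which acts in the supply of amino sugars for eggshell chitin and rose 7.01-fold against elo-5 C17ISO (663 ± 234 against 78.2 ± 10.7) and 3.82-fold against N2 (157 ± 17.8).

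A further list of glycan assembly enzymes, which holds no bus gene, takes in glycosyltransferases of N- and O-glycans, the glycolipid genes bre-2, bre-3 and bre-4, glycosaminoglycan genes such as sqv-3 and rib-1, and the hexosaminidase gene hex-1. Of 30 tested genes of this mixed list, 7 fell, 8 rose and 15 were not called against elo-5 C17ISO. Against N2, 6 fell, 4 rose and 20 were not called. Of all tested probe sets 44.8% were called against elo-5 C17ISO, with 18.8% of the tested called lower and the other calls higher. Against N2, 43.9% were called and 20.5% called lower. The counts of this list are therefore given as a description and are no result about it. The count that rose against elo-5 C17ISO was 5 without elo-5 C13ISO replicate 1 or elo-5 C17ISO replicate 1 and 4 without elo-5 C17ISO replicate 2, and against N2 it was 1 without N2 C13ISO replicate 2. The median was 0.12 and 0.14 as deposited, 0.05 and 0.10 after quantile normalization, and -0.11 and -0.02 with array medians aligned, so its sign depends on the scaling. A single gene of this list fell at least 4-fold, gly-8 of the family that starts mucin-type O-glycans, which was 6.46-fold lower against elo-5 C17ISO and 7.27-fold lower against N2. The lists of further surface genes, nucleotide sugars and glycan assembly enzymes share a few genes.

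**Figure D4:**
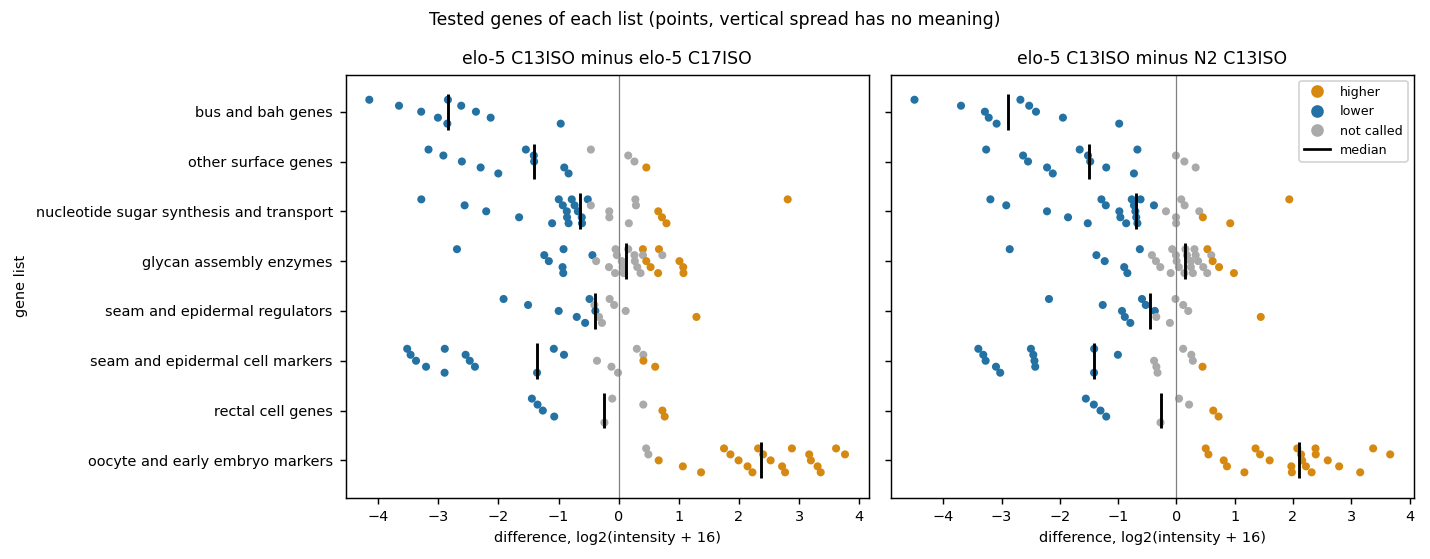
Difference in log2(intensity + 16) of each tested gene (points, coloured by call) with the median (black line) for the 10 bus and bah genes and 7 lists, for elo-5 C13ISO minus elo-5 C17ISO (left) and minus N2 C13ISO (right). The bus and bah genes have medians of -2.85 and -2.88, the glycan assembly enzymes lie on both sides of 0, and oocyte and early embryo markers have medians of 2.36 and 2.11.

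Several of the members act in the epidermis, of which markers were listed. Of 19 tested seam and epidermal cell markers 12 fell against either group, 9 of them at least 4-fold, and 2 rose against elo-5 C17ISO and 1 against N2. The rest, 5 and 6 markers, were not called. Of all tested probe sets 18.8% were called lower against elo-5 C17ISO and 20.5% against N2, and 2.69% and 2.78% at least 4-fold lower. Calls in either direction made up 44.8% and 43.9%. The summed intensity of the 19 was 15630 to 17524 in elo-5 C13ISO, 40614 to 41250 in elo-5 C17ISO and 39823 to 41817 in N2. The collagen gene rol-6 fell 10.4-fold and 10.6-fold, and the hedgehog-related gene wrt-8 fell 11.5-fold and 9.68-fold. The cell junction genes are singled out after their values were seen. Of these, dlg-1 rose in both comparisons, with log2 differences of 0.61 (adjusted p = 0.00221) and 0.45 (adjusted p = 0.0121). Against N2 dlg-1 was the only marker that rose, and the call depended on the processing. The count was 0 with array medians aligned, without an intensity trend, against a 1.2-fold change and with the mean of a gene's probe sets. After quantile normalization it was 2. The gene let-413 rose against elo-5 C17ISO (log2 0.41, adjusted p = 0.0407) and had 0.28 against N2 (adjusted p = 0.145), and ajm-1 was not called, with -0.12 and -0.35. The number of markers that rose against elo-5 C17ISO was 1 when either array of elo-5 C17ISO or either array of N2 was left out. Against N2 it was 0 without elo-5 C13ISO replicate 2 or either N2 array and 2 without elo-5 C13ISO replicate 1. Over all alternatives the number that fell ran from 12 to 13 against elo-5 C17ISO and from 12 to 14 against N2. Of 14 tested seam and epidermal regulators 7 fell and 1 rose against elo-5 C17ISO and 8 fell and 1 rose against N2, with medians of -0.40 and -0.45. The count that fell was 4 against elo-5 C17ISO without elo-5 C17ISO replicate 1, and 5 against N2 without elo-5 C13ISO replicate 1 or N2 C13ISO replicate 1, and 2 rose against N2 without the former. The zinc finger gene blmp-1 fell 3.77-fold and 4.56-fold, nhr-23, a nuclear receptor gene of molting, fell 2.84-fold and 2.40-fold, and aff-1, a cell fusion gene, rose 2.45-fold and 2.72-fold. How far a change in epidermal cells, in their stage or in their RNA accounts for the values of the bus and bah genes was not tested.

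Germline and early embryo markers moved the other way. Of 22 tested oocyte and early embryo markers 20 rose against elo-5 C17ISO and 22 against N2, and 0 fell. Of all tested probe sets 44.8% and 43.9% were called in these comparisons. Those called lower were 18.8% and 20.5% of the tested, and the other calls were higher. The summed intensity of the 23 markers on the array was 12034 to 18528 in elo-5 C13ISO, 2816 to 3853 in elo-5 C17ISO and 3691 to 4506 in N2. Of the 23 on the array, 2 had a mean below the offset in elo-5 C17ISO and 0 in the other groups. Of those that rose, 2 had an elo-5 C17ISO mean below the filter value and 1 an N2 mean below it. They passed only through groups where they were higher, so the counts describe this list and support nothing. The oocyte maturation gene oma-2 read 672 ± 232 in elo-5 C13ISO against 39.3 ± 12.7 in elo-5 C17ISO (SD, n = 2). The part of this RNA in the results of the set was not tested.

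The pattern most like that of bah-1 was sought among 14936 probe sets of other genes, as the root-mean-square distance over the 6 arrays of log2 values centred on their own mean. The 5 nearest were T06G6.6 at a distance of 0.25, ZK180.6 at 0.26, the furrow collagen gene dpy-8 at 0.29, C04F1.1 at 0.31 and the hedgehog-related gene wrt-4 at 0.32. ZK180.6, for example, read 92.2 and 122 in elo-5 C13ISO, 2245 and 2419 in elo-5 C17ISO, and 2911 and 2770 in N2 C13ISO. Among the other members the nearest was bus-8 at 0.46, in place 29 of all candidates, followed by bus-10 at 0.54, in place 52. The farthest was bus-2 at 1.59, in place 1143. The values were centred and not scaled, so a distance holds the size of a fall as well as its pattern. Among the members bus-2 had the smallest fall. These distances describe 6 arrays that share 3 conditions and were not tested.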

How the data were processed

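The authors deposited 1 intensity per probe set and array, computed with dChip per the labels. Its version, any use of mismatch probes and any step that scaled the arrays to each other were not stated there. The values themselves show a linear scale, with array medians of 107 to 134. Of 22548 probe sets, 20766 carried 1 gene name, 887 several and 895 none. Entrez IDs matched 20701 of the first to a WBcel235 gene table, used only for names and overlapping neighbours. R 4.3.3 with limma 3.58.1 (lmFit, eBayes with an intensity trend, 3 residual and 6.98 prior degrees of freedom) fitted log2(intensity + 16), keeping the deposited normalization, and the steps were tested on simulated data. Python 3.11.15, pandas 2.3.3 and matplotlib 3.10.9 drew the plots. Members, lists and tests were chosen with earlier results of these data known. Named list genes were at most the 3 largest called differences of a list and comparison, unless stated. Alternatives changed the offset, filter, scaling, variance prior, arrays fitted, replicate block, probe set rule, null fold and each array left out. The number of arrays limits the precision, and no scan or batch information was used.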

Additional observations from a re-analysis of the deposited data

How the results depend on the processing

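Under every alternative run, each tested bus and bah gene stayed lower in elo-5 C13ISO and was called in both comparisons. At a filter at the 50th percentile bus-2 was not tested, which left 9 of 9 called. The log2 difference of bah-1 against elo-5 C17ISO ran from -4.38 to -3.72, and the highest adjusted p of any member was 0.018, for bus-2 against N2 without N2 C13ISO replicate 1. The member counts stayed at 10 in each fit with an array left out, where the lone array of a group is assumed to vary like the others. Between elo-5 C17ISO and N2 C13ISO the count was 0 under all alternatives but a fit of the arrays compared, which gave 1, bus-8 at a log2 difference of -0.41. There 9 of 196 values that were never called changed sign. The replicate number as a replicate block left the member counts at 10, 10 and 0, and deviations of replicate 1 from the group means correlated at 0.00 to 0.08 between groups, so the numbers were not taken as pairs. Aligning array medians moved the median of all log2 differences from 0.07 to -0.16 against elo-5 C17ISO and from 0.02 to -0.14 against N2, and the share lower among called probe sets from 42% to 63.4% and from 46.6% to 61.3%. Testing for more than a 1.2-fold change took the number of all probe sets called from 7077 to 4581 and from 6927 to 4530. Between elo-5 C17ISO and N2 that number was 223, and 27 to 50 with an array of these groups left out, 524 without either elo-5 C13ISO array, 542 with the arrays compared only, 103 with no filter, 86 without an intensity trend and 62 against a 1.2-fold change. For list genes with the at most 3 largest called differences of a list and comparison, all 751 values kept direction and call. Other list genes named above, such as dlg-1, let-413, pax-3 and vab-3, were not among them, and the counts that hold them moved. The offset moved several of the differences behind the 751 values by more than 1.5 times. With 64 they went from -3.52 to -2.79 for wrt-8 and from 3.61 to 2.80 for oma-2, against elo-5 C17ISO. Of 756 list counts 61 moved by more than 1.5 times. Counts of genes that rose in elo-5 C13ISO moved at 25 of 126 against elo-5 C17ISO and 21 of 126 against N2, and those that fell at 2 and 4. The falls that moved were those of the epidermal regulators, to 4 and 5 against a 1.2-fold change and with the arrays named above left out, and of the further surface genes against N2, to 7 at a filter at the 50th percentile. With array medians aligned or against a 1.2-fold change, 3 glycan assembly enzymes rose against elo-5 C17ISO.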
